A study of Mus musculus with 10 samples.

Results

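A set of 10 genes of tumor necrosis factor (TNF) and NF-kB signalling was followed in inguinal white adipose tissue (iWAT) of male C57BL/6 mice. The 10 were taken by gene symbol, out of 33120 genes for which exon reads could be counted: the ligand genes Tnf and Il1b, the receptor genes Tnfrsf1a and Tnfrsf1b, the NF-kB subunit genes Nfkb1 and Rela, the inhibitor genes Nfkbia and Tnfaip3, and the regulators Peli1 and Hmgb2. Each was found once in each of the 10 RNA-seq libraries, 1 library per mouse. In the offspring generation (F1), 3 sons of fathers fed a control diet (CD) and 3 sons of fathers fed a low-protein diet (pLPD) were examined at the age of 5 weeks, and all 6 were themselves raised on CD by CD-fed mothers. In the parental generation (F0), 2 males fed CD and 2 males fed the low-protein diet (LPD) from weaning were examined at 10 to 12 weeks. Diet was the only treatment that the labels name. Libraries were made from total RNA of the whole fat pad after removal of ribosomal RNA, so that fewer cells of a type and less RNA per cell cannot be told apart.

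TNF and IL-1beta are secreted by activated macrophages and other immune cells, and adipose tissue is a well-known source of TNF in obesity. Their receptors signal through ubiquitin ligases and the IKK kinases, which mark the inhibitor IkBalpha for destruction and let NF-kB dimers such as p50-RelA enter the nucleus. NF-kB in turn drives genes for its own inhibitors, among them Nfkbia and Tnfaip3, which close a negative feedback loop.

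To show what such a loop looks like in DNA, the 250 bases before the RefSeq start of each gene (build GRCm38.p6) were searched on both strands for the 10-base NF-kB consensus. Promoters were listed for 9 of the 10 genes, without Nfkb1, and 3 of the 9 genes held a match, against 3.90% of 32851 promoters of all genes. These were both inhibitor genes and Hmgb2. The 30 bases around each match are given 5′ to 3′ on the strand of the gene, with the match in capitals. The Nfkbia match began 29 bases before the start and read on the opposite strand (chr12:55492657-55492686, minus strand). Tnfaip3 held one match 125 bases before the start, read on the strand of the gene, and another 12 bases before it, read on the opposite strand (chr10:19015516-19015545 and chr10:19015411-19015440, minus strand). Of the 250 bases searched there, 110 lay in annotated exons of Tnfaip3 itself. A further promoter listed for Tnfaip3 held none. The Hmgb2 match began 43 bases before the start (chr8:57511790-57511819, plus strand). A match describes the letters only.
Nfkbia: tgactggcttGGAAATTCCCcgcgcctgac
Tnfaip3, far match: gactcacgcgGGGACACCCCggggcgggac
Tnfaip3, near match: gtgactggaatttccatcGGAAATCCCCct
Hmgb2: tgggggggcgGGGACTCTCCgggtttgaat

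Each library held between 6351075 and 10044546 exon reads, and 3 reads corresponded to 0.299 to 0.472 CPM (counts scaled to 1000000 per library). Below this floor, which allows for counting error alone, a gene could not be told from absent. Adipocyte markers were abundant in every library, with 8 genes summing to between 18330 and 25320 CPM. The F1 pLPD libraries differed from the others in kind of read. Introns took 40.7 to 48.4% of reads on protein-coding genes in them against 36.0 to 38.0% in the other 7 libraries, and mitochondrial rRNA took 13.5 to 18.2% of gene reads against 9.29 to 12.4%. Their part in the results below was not tested.

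Measured per exon length, as the deposited RPKM (reads scaled by exon length and library), the signalling machinery was far more abundant than the ligands. Over the 10 libraries Tnfrsf1a averaged 21.9 RPKM and Nfkbia 20.8, followed by Rela at 10.9, Nfkb1 at 8.34 and Tnfrsf1b at 6.84. Hmgb2 averaged 4.97, Peli1 4.49, Tnfaip3 3.02, Tnf 1.33 and Il1b 0.673 RPKM. Neighbours in this order often overlapped: Tnfrsf1a ranged from 15.4 to 25.5 RPKM and Nfkbia from 16.0 to 29.0, and Hmgb2 from 3.60 to 6.86 against 3.60 to 5.40 for Peli1. Tnfaip3, at 2.63 to 3.52 RPKM, overlapped Tnf at 0.803 to 2.83 RPKM only through a single pLPD library, and Il1b spread from 0.0293 to 4.79 RPKM.

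**Figure D1:**
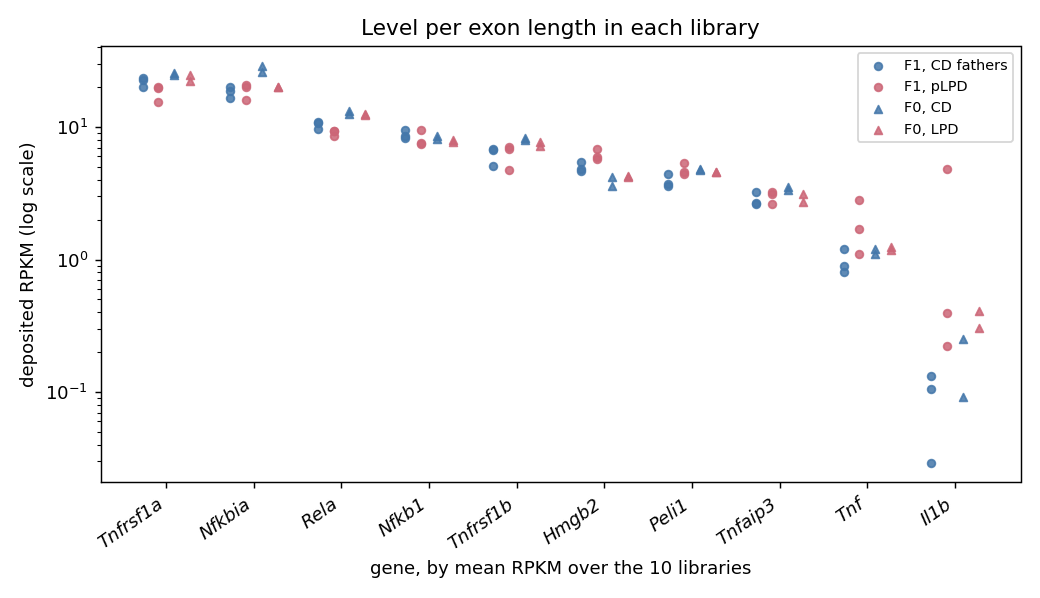
Deposited RPKM of the 10 genes in each of the 10 libraries, on a logarithmic axis, with genes ordered by their mean. Circles are F1 and triangles F0 libraries. The means of the receptors, subunits and Nfkbia lie above those of Tnf and Il1b, and Il1b spreads from 0.0293 to 4.79 RPKM, reaching above the lowest Tnfrsf1b library.

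To ask whether the diet of the father was followed by a change in this pathway in the sons, the pLPD offspring were compared with the offspring of CD fathers. Tnf, Il1b, Peli1, Hmgb2, Tnfaip3 and Nfkbia were each higher in all 3 pLPD libraries than in all 3 CD libraries, narrowly in Nfkbia. How many of all genes separate in this way was not counted, so the separation is a description only. None of the 9 genes that could be tested passed an adjusted p of 0.05. Among the tested genes the largest difference was in Tnf at 2.12-fold, and the smallest adjusted p, 0.0512, belonged to Peli1. The receptors and the subunits overlapped between groups. Of all 14049 genes tested, 0.142% were called higher and 1.02% lower, so calls in the higher direction were rare.

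Among the ligands, Tnf, the founding cytokine of its family (17:35199381-35202007, minus strand, mm10), was at 2.83, 4.05 and 2.96 CPM in the CD offspring and at 4.59, 5.97 and 10.4 CPM in the pLPD offspring. The groups did not overlap, and the highest pLPD library stood well above the others of its group. The means were 3.28 ± 0.67 and 7.00 ± 3.06 CPM (SD, n = 3 each), resting on 21 to 35 and 30 to 67 reads. The log2 fold change was 1.09 with a standard error of 0.34 (edgeR, adjusted p = 0.154, unadjusted p = 0.00795), and it was 0.69 without pLPD replicate 3.

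Il1b, which encodes the IL-1beta precursor (2:129364570-129371139, minus strand), was at 0.540, 0.116 and 0.403 CPM in the CD offspring, that is 4, 1 and 3 reads. In the pLPD offspring it was at 1.07, 1.63 and 20.6 CPM, that is 7, 12 and 132 reads. Replicate 3, which also had the most Tnf, held most of the Il1b reads of its group. The gene was removed by the filter on low counts in F1 and has no test there. With no filter its log2 fold change was 4.42 with a standard error of 0.62 (edgeR, adjusted p = 3.72e-07), and without pLPD replicate 3 it was 1.93 with a standard error of 0.94 (adjusted p = 0.332).

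The same library stood apart in the neutrophil markers S100a9, S100a8 and Retnlg, out of 6. The summed level of the 6 genes was 31.8 CPM in pLPD replicate 3, against 7.20 and 9.49 CPM in the other pLPD libraries and 8.74 to 12.6 CPM in the CD offspring. The calprotectin gene S100a9 reached 17.9 CPM and S100a8 6.08 CPM there. Retnlg was low but reached 1.09 CPM there, against at most 0.270 CPM in the CD offspring. The granulocyte gene Ly6g was at 0 in all 6 F1 libraries, and Csf3r overlapped between the groups (log2 fold change -0.01). Cxcr2 went the other way, at 2.34 to 3.06 CPM in all 3 pLPD libraries against 3.51 to 5.32 CPM in the CD offspring (log2 fold change -0.66, adjusted p = 0.333). None of the 3 neutrophil markers tested passed in edgeR, DESeq2 or limma-trend, and 1 of them, S100a9, was higher at an unadjusted p below 0.05. The part of these cells in the Tnf and Il1b levels was not tested.

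The receptors gave no separation. Tnfrsf1a, the widely expressed receptor with a death domain (6:125349362-125362484, plus strand), was at 113 to 127 CPM in the CD offspring and 101 to 118 CPM in the pLPD offspring. Its log2 fold change was -0.12 ± 0.09 (SE, edgeR, adjusted p = 0.58). Tnfrsf1b, the second TNF receptor, prominent on immune and endothelial cells (4:145213463-145246870, minus strand), was at 40.3 to 55.2 CPM and 45.6 to 60.8 CPM, with a log2 fold change of 0.15 ± 0.14 (adjusted p = 0.665).

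The subunits behaved alike in overlapping. Nfkb1, encoding p105 and its product p50 (3:135584655-135691547, minus strand), was at 107 to 118 CPM in the CD offspring and 106 to 127 CPM in the pLPD offspring. Rela, encoding the transactivating subunit p65 (19:5637483-5648130, plus strand), was at 53.9 to 63.0 and 55.1 to 58.3 CPM. Their log2 fold changes were 0.06 ± 0.09 (SE, edgeR, adjusted p = 0.829) and -0.04 ± 0.09 (adjusted p = 0.889).

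Of the inhibitors, Tnfaip3, which encodes the ubiquitin-editing protein A20 (10:19000910-19015657, minus strand), was at 41.3, 39.6 and 46.6 CPM in the CD offspring and at 47.9, 48.6 and 53.0 CPM in the pLPD offspring. The ranges were separated by a small gap. The log2 fold change was 0.24 ± 0.10 (SE, edgeR, adjusted p = 0.285). Nfkbia, which encodes IkBalpha (12:55489410-55492647, minus strand), was at 65.2, 55.4 and 64.9 CPM and at 65.2, 72.6 and 72.3 CPM. The lowest pLPD library and the highest CD library were nearly equal, and the log2 fold change was 0.19 ± 0.10 (adjusted p = 0.391).

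Peli1, a ubiquitin ligase acting in Toll-like and IL-1 receptor signalling (11:21091291-21150323, plus strand), came closest to the threshold. It was at 50.9, 50.7 and 57.7 CPM in the CD offspring and at 75.6, 76.4 and 65.8 CPM in the pLPD offspring. All 3 pLPD libraries lay above the CD libraries. The means were 53.1 ± 4.0 and 72.6 ± 5.9 CPM (SD, n = 3 each), a 1.38-fold difference, and the log2 fold change was 0.46 ± 0.10 (SE, edgeR, adjusted p = 0.0512). Peli1 was past the threshold in 5 of 9 alternative settings, among them DESeq2, with adjusted p-values from 0.00554 to 0.301 over the 9. Of the 6 fits that left out a library, Peli1 passed in only 2. These were the fits without CD replicate 3 (adjusted p = 0.024) and without pLPD replicate 3 (adjusted p = 0.0427). In the others the adjusted p was up to 0.231. Introns held 81.2% of the reads on Peli1, the most of the 10 genes.

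Hmgb2, a chromatin protein that is abundant in dividing cells (8:57511907-57515999, plus strand), was at 31.6, 26.7 and 25.1 CPM in the CD offspring. In the pLPD offspring it was at 40.3, 39.9 and 34.8 CPM. The groups did not overlap. The means were 27.8 ± 3.4 and 38.3 ± 3.1 CPM (SD, n = 3 each), and the log2 fold change was 0.47 ± 0.12 (SE, edgeR, adjusted p = 0.0896). Hmgb2 is uncertain as a single gene, since 25.3% of its exon reads matched one place, and the rest could belong to near-identical copies. On those unique reads, 57, 58 and 48 against 70, 92 and 64 per library, the log2 fold change was 0.68 (edgeR, adjusted p = 0.0978).

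**Figure D2:**
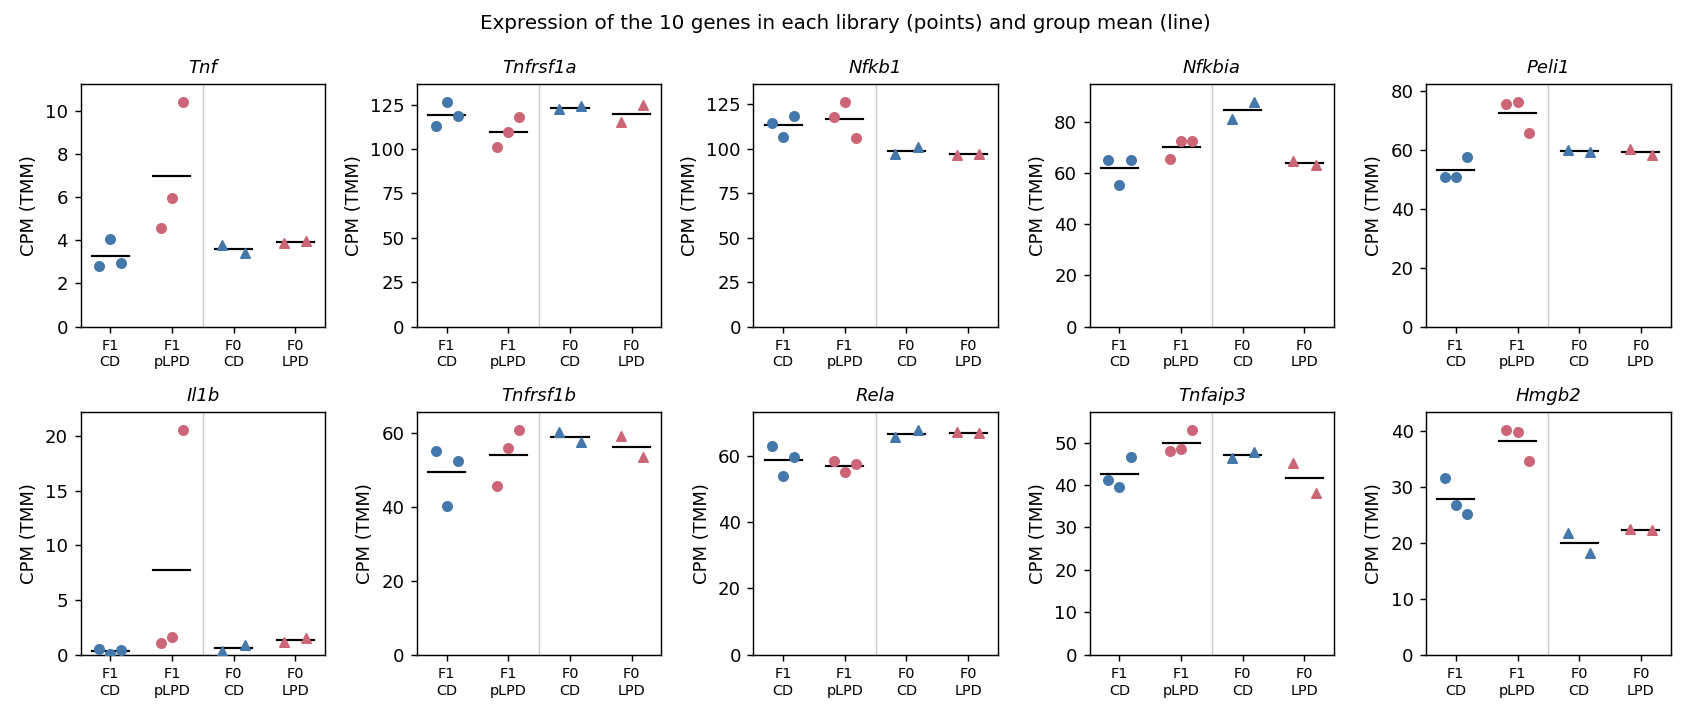
TMM-normalized CPM of each gene in each library, with a line at the group mean. Circles are F1 and triangles F0 libraries, blue is control diet and red is the low-protein diet of the father (F1) or of the mouse itself (F0). In F1, Peli1 lies at 65.8 to 76.4 CPM in pLPD against 50.7 to 57.7 CPM in CD, and 1 pLPD library carries most of the Il1b and the highest Tnf. In F0, Nfkbia is lower in both LPD libraries.

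Counted over the 9 tested genes, 7 log2 fold changes were positive and 2 negative, with a median of 0.19 against 0.01 over all genes tested. None passed in edgeR, and 4 were higher and 0 lower at an unadjusted p below 0.05, a level reached in the higher direction by 6.57% of all genes. The paper had already reported Peli1 and Hmgb2 as up-regulated and Tnf as tending to increase in these offspring. The genes were chosen with such results known, so the counts describe the list and test nothing. DESeq2 called 1 of the 10 genes (Peli1) and limma-trend on log2 RPKM called 0. RPKM are divided by all mapped reads rather than by exon reads. On that scale the median of all genes in F1 was -0.14, and the values of these 9 genes were lower as well: Tnfrsf1b was at -0.02 and Nfkb1 at -0.11, both with their sign turned, while Tnf was at 0.81, Hmgb2 at 0.31 and Peli1 at 0.29.

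Immune markers moved in more than one direction beside these genes. All 10 macrophage markers tested were lower in the pLPD offspring, 7 of them past the threshold in edgeR, 9 in DESeq2 and 1 (Adgre1) in limma-trend, and their summed level was 832 to 994 CPM against 1229 to 1522 CPM in the CD offspring, with none at 0. The 9 T cell markers were all positive, 8 of them at an unadjusted p below 0.05 and 0 past the threshold in edgeR, DESeq2 or limma-trend, with sums of 405 to 495 CPM against 323 to 394 CPM. Of the 10 proliferation markers, 9 were positive, 4 at an unadjusted p below 0.05 and 0 past the threshold with any of the 3 tools, with sums of 154 to 194 CPM against 131 to 160 CPM. The 7 B cell markers were all positive with overlapping sums of 467 to 659 CPM against 482 to 553 CPM, 1 at an unadjusted p below 0.05 and 0 past the threshold with the 3 tools. The part of these cells in the values of Tnf, Peli1 and Hmgb2 was not tested. In each of the 3 pLPD libraries Tnf was above and the macrophage sum below every CD library.

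**Figure D3:**
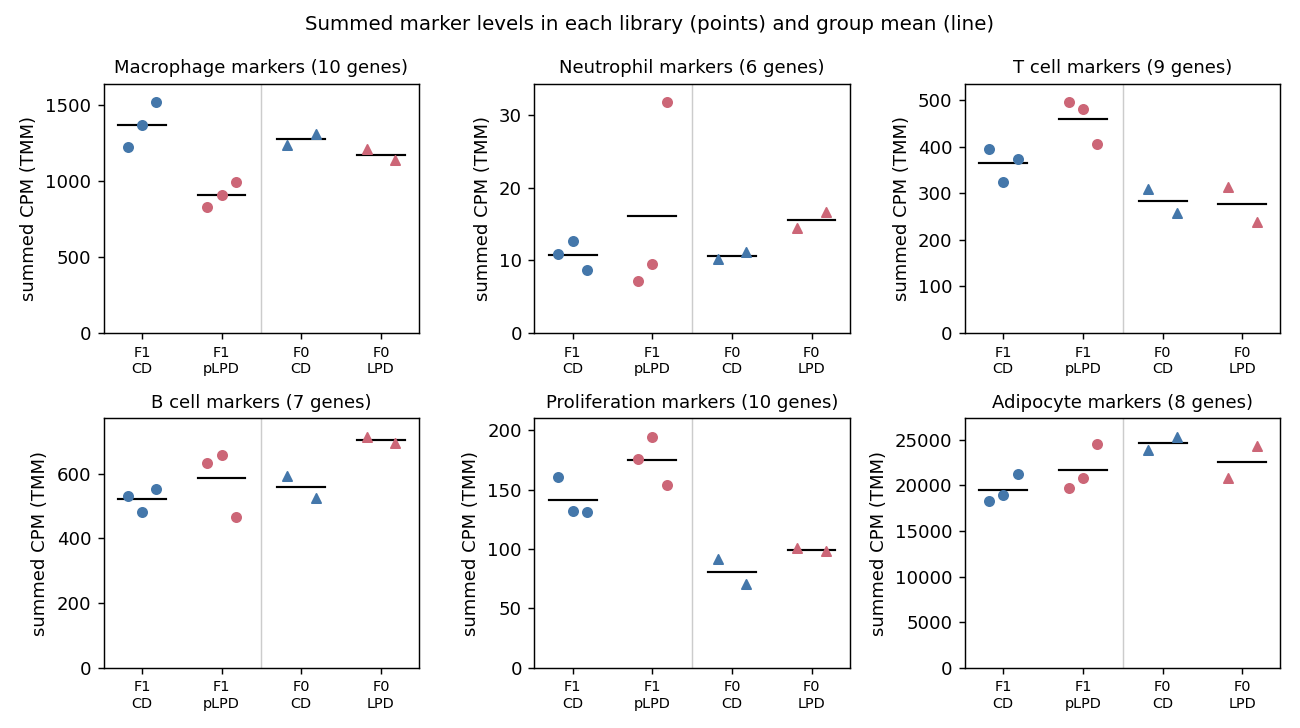
Summed TMM-normalized CPM of marker genes for 6 cell types or states in each library, with a line at the group mean. Circles are F1 and triangles F0 libraries, blue is control diet and red low-protein diet. Macrophage sums are 832 to 994 CPM in the pLPD offspring against 1229 to 1522 CPM in the CD offspring, and 1 pLPD library has a neutrophil sum of 31.8 CPM.

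The rest of the pathway was described with 93 further genes. Of the 86 tested in F1, 49 were positive and 37 negative with a median log2 fold change of 0.04, and edgeR called 0. At an unadjusted p below 0.05, 9 were higher and 2 lower, against 6.57% and 8.76% of all genes. DESeq2 called 1 higher (Il1rn) and limma-trend 0. By role, 6 of 10 ligand and processing genes, 15 of 31 receptor and adaptor genes and 8 of 9 kinase and subunit genes were positive. So were 8 of 17 inhibitors and other regulators, 10 of 17 target genes and 2 of 2 further HMGB genes. The smallest unadjusted p-values were those of Il1rn and Traf5. Il1rn, the natural antagonist of the IL-1 receptor, was at 0.945, 1.04 and 1.21 CPM in the CD offspring and at 1.68, 2.17 and 10.8 CPM in the pLPD offspring, again highest in replicate 3. Its log2 fold change was 2.17 ± 0.67 (SE, edgeR, adjusted p = 0.152), and it was 0.86 without that library. Traf5, an adaptor of TNF receptor family members, was at 15.1, 16.0 and 19.9 CPM and at 23.3, 23.3 and 20.7 CPM, with a log2 fold change of 0.41 ± 0.14 (adjusted p = 0.197).

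To see the effect of the diet itself, LPD-fed males were compared with CD-fed males in F0, with 2 mice per group. None of the 10 genes passed the threshold, and the smallest p belonged to Nfkbia, which lay lower in LPD. In edgeR 0 of 10 were called, with 0 higher and 1 lower at an unadjusted p below 0.05, and DESeq2 and limma-trend also called 0. Of all 14581 genes, 1.18% were called higher and 1.32% lower. At an unadjusted p below 0.05, 7.53% of all genes were higher and 8.2% lower. The log2 fold changes of the 10 were positive in 4 and negative in 6, with a median of -0.02 against 0.00 over all genes.

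Nfkbia was at 81.0 and 87.8 CPM in the CD-fed and at 64.7 and 63.1 CPM in the LPD-fed males. The gap between the groups was wider than the spread within either. The means were 84.4 ± 4.8 and 63.9 ± 1.2 CPM (SD, n = 2 each), a ratio of 0.757, and the log2 fold change was -0.40 ± 0.09 (SE, edgeR, adjusted p = 0.0526, unadjusted p = 0.0014). It passed in 4 of 9 alternative settings and in none of the 4 fits that left out a mouse, with adjusted p-values from 0.00101 to 0.258 over the 9. The value of 0.00101 came from a block by replicate number, which the labels do not give, and no filter on low counts gave 0.00451. The other passes were at 0.0464 and 0.0468 (all edgeR). Tnfaip3, the other inhibitor, was at 46.5 and 47.8 CPM in CD and at 45.1 and 38.1 CPM in LPD. Its log2 fold change was -0.18 ± 0.11 (SE, edgeR, adjusted p = 0.485).

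The ligands were low in F0. Tnf was at 3.81 and 3.40 CPM in CD and at 3.89 and 3.98 CPM in LPD, a log2 fold change of 0.13 ± 0.27 (SE, edgeR, adjusted p = 0.881). Il1b was at 0.336 and 0.899 CPM in CD and at 1.16 and 1.52 CPM in LPD, from 3, 9, 11 and 13 reads, a log2 fold change of 1.06 ± 0.56 (adjusted p = 0.419). Both LPD libraries lay above both CD libraries in each of these genes, narrowly in Tnf, and also in Hmgb2. Nfkb1, Nfkbia and Tnfaip3 were lower in both LPD libraries than in both CD libraries, narrowly in Nfkb1 (log2 fold change -0.03). How many of all genes separate in this way was not counted. With 2 mice per group such an order easily arises by chance, so it is a description only.

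The remaining 6 genes differed little. Tnfrsf1a was at 115 to 125 CPM over the 4 F0 libraries, Tnfrsf1b at 53.5 to 60.1, Nfkb1 at 96.7 to 100.7, Rela at 65.6 to 67.8 and Peli1 at 58.4 to 60.2 CPM, and their log2 fold changes lay between -0.06 and 0.00 with adjusted p-values from 0.815 to 0.991 (edgeR). Peli1 in particular was at 59.6 ± 0.6 CPM in CD and 59.3 ± 1.3 CPM in LPD (SD, n = 2 each). Hmgb2 was at 21.8 and 18.2 CPM in CD and at 22.5 and 22.3 CPM in LPD, a log2 fold change of 0.17 ± 0.13 (adjusted p = 0.63).

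In the wider pathway, 3 of the 86 genes tested rose in LPD-fed males and 0 fell, against 1.18% and 1.32% of all genes. At an unadjusted p below 0.05, 11 were higher and 3 lower, against 7.53% and 8.2% of all genes. The median log2 fold change was 0.02. DESeq2 called 2 higher (Irak2 and Tnfrsf12a) and 0 lower, and limma-trend 0 in both directions. Irak2, a kinase of IL-1 receptor signalling, went from 45.2 and 45.3 CPM to 62.4 and 82.7 CPM, a log2 fold change of 0.68 ± 0.13 (SE, edgeR, adjusted p = 0.0351). Il1rn was at 0.224 and 0.400 CPM in CD, from 2 and 4 reads, and at 1.79 and 2.11 CPM in LPD, from 17 and 18 reads. Its log2 fold change was 2.57 ± 0.53 (SE, edgeR, adjusted p = 0.0463). CD replicate 1 lay below the floor of 3 reads, and DESeq2 did not call Il1rn (adjusted p = 0.265). Tnfrsf12a, the receptor for TWEAK, was at 4.14 and 3.40 CPM in CD and at 7.67 and 15.1 CPM in LPD (log2 fold change 1.59 ± 0.33, adjusted p = 0.048). Il1rn passed in none of the 4 fits that left out a mouse (adjusted p from 0.15 to 0.303), and Irak2 and Tnfrsf12a passed only without LPD replicate 1, with adjusted p-values of up to 0.124 and 0.204 in the other 3.

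Beside these genes, all 8 immediate early genes measured had positive log2 fold changes in F0 with a median of 0.60. Of them 2 (Fos and Jun) were past the threshold in edgeR and DESeq2, and 0 in limma-trend. The summed level of the 8 was 237 and 251 CPM in LPD against 157 and 159 CPM in CD. The 6 skeletal muscle markers were all lower in LPD, with sums of 887 and 649 CPM against 1275 and 1890 CPM. Of them 4 were past the threshold in edgeR, 2 in DESeq2 and 2 in limma-trend. Macrophage sums were 1141 and 1210 CPM against 1239 and 1314 CPM, and B cell sums 697 and 714 CPM against 525 and 593 CPM. Their part in the rise of Irak2, Il1rn and Tnfrsf12a was not tested.

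**Figure D4:**
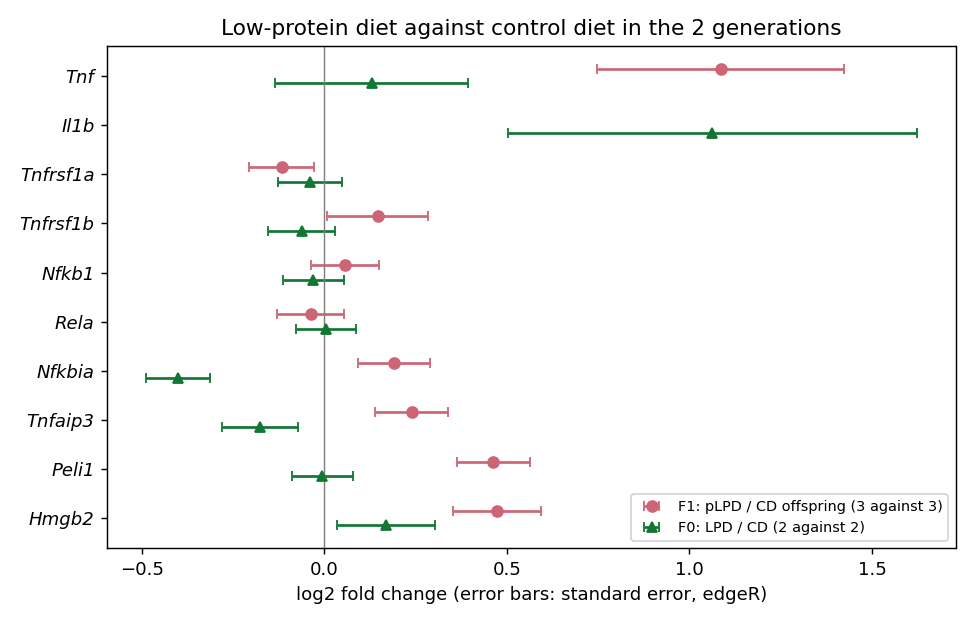
Log2 fold change of each gene for the low-protein diet against the control diet, with standard errors from edgeR, in F1 (circles, 3 pLPD against 3 CD offspring) and F0 (triangles, 2 LPD against 2 CD). Il1b has no F1 point since it was not tested. Nfkbia is at 0.19 in F1 and -0.40 in F0, and Tnfaip3 at 0.24 and -0.18.

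Whether F1 and F0 differed in their response was examined with a generation-by-diet term fitted to all 10 libraries. The low-protein diet was that of the father in F1 and that of the mouse itself in F0. The generations also differ in age and library set, and all of these cannot be told apart. The log2 difference of the F1 from the F0 response was positive in 8 of the 10 genes, with a median of 0.35 against 0.00 over all genes, and 0 of the 10 passed in edgeR. At an unadjusted p below 0.05, 3 were positive and 0 negative, against 4.91% and 7.58% of all genes. These counts, too, describe a list chosen with earlier results of these data known. DESeq2 called 1 (Nfkbia), limma-trend 0, and of all 15111 genes 0.357% were called positive and 0.893% negative. Nfkbia had a difference of 0.58 ± 0.14 (SE, edgeR, adjusted p = 0.0578), made of 0.19 in F1 and -0.40 in F0. It passed in 4 of 8 alternative settings and in 2 of the 10 fits that left out a mouse, those without F1 CD replicate 3 (adjusted p = 0.0364) and without pLPD replicate 1 (adjusted p = 0.0387). Peli1 had a difference of 0.46 ± 0.14 (adjusted p = 0.134) and Tnfaip3 one of 0.41 ± 0.15 (adjusted p = 0.259). Tnf had a difference of 0.95 ± 0.49 (adjusted p = 0.454) and Il1b one of 3.36 ± 1.92 (adjusted p = 0.503). Without pLPD replicate 3 these were 0.55 for Tnf and 0.87 for Il1b.

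Of 88 wider pathway genes tested in the interaction, 1 was past the threshold, in the negative direction, against 0.893% of all genes. Irak2 had a log2 difference of -0.88 ± 0.18 (SE, edgeR, adjusted p = 0.0395), and it lost its call in 7 of the 10 fits that left out a mouse (adjusted p up to 0.202), with all reads on the gene and with limma-trend. In F1, Irak2 was at 56.0, 57.2 and 45.2 CPM in the CD and 46.9, 43.1 and 48.0 CPM in the pLPD offspring.

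The levels of the CD-fed F0 males and the offspring of CD fathers were also compared, a contrast in which generation, age, diet history and library set cannot be told apart and which shares its control samples with the comparisons above. Nfkbia was higher in F0, at 84.4 ± 4.8 CPM (SD, n = 2) against 61.8 ± 5.5 CPM (n = 3), a log2 fold change of 0.45 ± 0.09 (SE, edgeR, adjusted p = 0.00556). Hmgb2 was lower in F0, at 20.0 ± 2.6 CPM (n = 2) against 27.8 ± 3.4 CPM (n = 3), a log2 fold change of -0.48 ± 0.13 (adjusted p = 0.0253), and on unique reads it was -0.74 (adjusted p = 0.025). Without F0 CD replicate 2 neither passed, with adjusted p-values of 0.0963 and 0.275, and without F1 CD replicate 1 Hmgb2 did not pass (adjusted p = 0.0895). The background of calls was high in this contrast, 8.78% of genes higher and 10.1% lower, so that 1 call in each direction among 10 genes was near it. The other 8 genes had log2 fold changes between -0.19 (Nfkb1) and 0.85 (Il1b) with adjusted p-values from 0.157 to 0.845 (edgeR).

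Of the 10 proliferation markers, 5 were lower in the F0 CD males past the threshold in edgeR and DESeq2, and 1 (Top2a) in limma-trend. Sums over the 10 were 70.7 and 91.2 CPM against 131 to 160 CPM in F1, beside the lower Hmgb2. The 6 muscle markers were all higher, with sums of 1275 and 1890 CPM against 73.9 to 149 CPM, beside the higher Nfkbia. The 8 adipocyte markers were also all positive, with sums of 23890 and 25320 CPM against 18330 to 21250 CPM. Of them 4 were past the threshold in edgeR, 5 in DESeq2 and 2 in limma-trend. The 9 T cell markers were all negative, with sums of 258 and 309 CPM against 323 to 394 CPM. Past the threshold were 2 in edgeR and DESeq2 and 0 in limma-trend. The macrophage sums overlapped, at 1239 and 1314 CPM against 1229 to 1522 CPM. The part of these cells was not tested.

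Among the 88 other pathway genes tested in this contrast, 8 were higher and 7 lower in F0, against 8.78% and 10.1% of all genes. The list was thus near the background, and up to 6 genes in each direction with the smallest p-values are named as a description. Higher were Mmp9, a gelatinase (log2 fold change 1.64, adjusted p = 0.000152), Irak3, an inhibitory IRAK family member (0.86, 0.0055), Zfp36, which destabilizes Tnf mRNA (0.57, 0.00176), Hmgb1 (0.49, 0.00129), the endotoxin receptor Tlr4 (0.46, 0.0108) and the adaptor Traf6 (0.41, 0.00919). Lower were Tab1 (-0.80, 0.00378), the mitochondrial superoxide dismutase gene Sod2 (-0.63, 0.000429), Rnf11 (-0.40, 0.0104), Myd88 (-0.39, 0.0343), Adam17, the sheddase of TNF (-0.32, 0.0225), and Rbck1 (-0.32, 0.0416), all by edgeR. Hmgb1 and Myd88 rested on reads that matched several places: on unique reads Hmgb1 was at 0.08 (adjusted p = 0.693) and Myd88 at -0.08 (adjusted p = 0.732). Mmp9, Zfp36, Hmgb1 and Sod2 passed in all 10 fits that left out a mouse, and the other 8 did not pass without F0 CD replicate 2. Rbck1 also failed in 6 further fits, Myd88 in 4, Adam17 in 2 and Rnf11 in 1, and limma-trend called none of these 4.

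For each of the 8 genes with at least 100 reads in every library, the 2 genes with the most similar profile were sought among 9938 others, by the root mean square difference of log2 CPM around the mean of each gene over the 10 libraries, which shared all libraries. Hmgb2 lay closest to Mki67, the proliferation antigen Ki-67 (0.109), and Hccs (0.113), with a spread of its own of 0.368. Peli1 lay closest to Rassf5 (0.0549) and Smarca5 (0.0674), with a spread of 0.190. Nfkbia lay closest to Zhx3 (0.0579) and Xndc1 (0.0795), and Tnfaip3 to Ginm1 (0.0582) and Qars (0.0587). The nearest genes to the receptors were Nmt1 and Psmd7 for Tnfrsf1a and Ncl and Utp3 for Tnfrsf1b, and to the subunits Cox7a2l and Herc2 for Nfkb1 and Rab11b and Fech for Rela, at distances between 0.0418 and 0.0892.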

How the data were processed

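Total RNA of iWAT was sequenced by the authors after rRNA depletion with a strand-specific kit, and CLC Genomics Workbench was used to map reads to mm10. The deposited counts are the authors' exon reads per gene, without normalization. The deposited RPKM are those reads divided by exon length and mapped reads, and were used between genes and as an alternative. Counts were filtered with filterByExpr, TMM-normalized and tested with the quasi-likelihood F test of edgeR 4.0.16 in R 4.3.3, two-sided, each generation in its own fit and the other contrasts over all 10 libraries. P-values were adjusted by Benjamini-Hochberg over all genes tested, with a threshold of 0.05. CPM used TMM factors of all 10 libraries. DESeq2 1.42.0 and limma-trend (limma 3.58.1) on log2(RPKM + 0.1) were alternatives. The procedure was tested on simulated data. Each library is 1 mouse, and no 2 libraries were identical.

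All 10 genes are named. Pathway genes are named when past the threshold, at most 6 per direction with the smallest p, or else the 2 with the smallest unadjusted p. The members and lists were chosen with earlier results of these data known. Itgam was not analysed here. 1 listed pathway gene is not reported here.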

Additional observations from a re-analysis of the deposited data

Results flagged for a closer look

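Irak2 differed between the 2 generations in its diet difference by the interaction test in edgeR. The low-protein diet was that of the father in F1 and that of the mouse itself in F0. This exposure, generation, age and library set cannot be told apart. The log2 difference of F1 from F0 was -0.8807 (adjusted p = 0.0395), with 3 against 3 offspring and 2 against 2 parental males. Both LPD libraries lay above both CD libraries in F0, and in F1 the groups overlapped. Of the 10 fits that left out a library, Irak2 passed only in the 3 without LPD replicate 1, F1 CD replicate 3 or pLPD replicate 1 (adjusted p from 0.0115 to 0.202 over the 10). With all reads on the gene the adjusted p-value of Irak2 was 0.0993, and with limma-trend 0.0944.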

How the results depend on the processing

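Of the 10 genes, edgeR called 0 in F1, 0 in F0, 0 in the interaction and 2 between the CD groups, and of all genes 164, 364, 189 and 2857. DESeq2 called 1 of the 10 in F1 and 1 in the interaction, and 335 and 333 of all genes. With no filter on low counts 4, 1 and 2 of the 10 were called in F1, F0 and the interaction, and 798, 1343 and 890 of all genes. Without pLPD replicate 3 as well, an alternative added after the data were seen, 2 of the 10 were called in F1. A minimum of 10 counts in every sample, and likewise uniquely matching exon reads, called 1 of the 10 in each of F1, F0 and the interaction. The fit of all 4 groups called 1 of the 10 and 339 of all genes in F1, and 175 of all genes in F0. Limma-trend on log2 RPKM called 51, 9, 51 and 1879 of all genes in the 4 comparisons and 1 of the 10 between the CD groups, and it moved the median of all genes to -0.14, -0.05, -0.09 and 0.11. Of its calls, 1.96, 33.3, 11.8 and 66% were in the higher direction, against 12.2, 47.3, 28.6 and 46.4% with edgeR. Signs turned under limma-trend for Tnfrsf1b (-0.0155) and Nfkb1 (-0.1087) in F1, Rela in F0 (-0.0518) and Nfkb1 in the interaction (-0.023). They also turned for Rela in F0 with at least 10 counts (-2e-04) and, with all reads on the gene, for Nfkb1 in F0 (0.0015) and Tnf between the CD groups (-0.0176). The cause was not tested.

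The replicate number as a replicate block called 0 of the 10 and 260 of all genes in F1, 1 of the 10 (Nfkbia, log2 fold change -0.40) and 1391 of all genes in F0, and 0 of the 10 and 267 of all genes in the interaction. Nothing in the labels pairs mice by number, and same-numbered mice deviated together with correlations of 0.001 to 0.0718 in F1 and 0.0599 in F0. No block could be fitted between the CD groups.

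Leaving out each library in turn gave 0 to 1 of the 10 genes in F1, 0 in F0, 0 to 1 in the interaction and 0 to 2 between the CD groups. Over all genes it gave 18 (without CD replicate 1) to 510 (without CD replicate 3) in F1, 107 (without LPD replicate 2) to 475 (without LPD replicate 1) in F0, 19 (without F0 CD replicate 2) to 395 (without F1 CD replicate 3) in the interaction, and 793 (without F0 CD replicate 2) to 3030 between the CD groups. Log2 fold changes that crossed 0 were those of Nfkb1 (-0.0131 to 0.1181) and Rela (-0.0979 to 0.0129) in F1, of Tnfrsf1a (-0.0977 to 0.0149), Tnfrsf1b (-0.1405 to 0.0066), Rela (-0.02 to 0.0315) and Peli1 (-0.0321 to 0.0161) in F0, of Rela (-0.1103 to 2e-04) in the interaction, and of Il1b (-0.0255 to 1.3595) between the CD groups. Depth was lowest for Tnf, with 21 to 67 reads per F1 library, and Il1b, with 1 to 132.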

Other observations

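Intron reads of Il1b were also highest in 1 pLPD offspring, at 27 reads in replicate 3 against 6 and 4 in the other pLPD offspring and 0, 4 and 3 in the CD offspring. In F0 they were 17 and 21 in the LPD-fed and 3 and 2 in the CD-fed males, where exon reads were 11 and 13 against 3 and 9. No test was run on them.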
